A study of Mus musculus with 6 samples.

Results

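Multipotent retinal progenitor cells were the cells that the authors' deposited cell table named RPCs. They numbered 40882 of the 67050 cells in 6 libraries of mouse retina at embryonic day 14. Whole transcripts were not read: each library was a droplet 3' single-cell RNA-seq library, in which a unique molecular identifier (UMI) stands for 1 captured RNA molecule. The libraries formed 3 groups of 2. In the first group Bax was heterozygous and Atoh7 null. In the second Bax was null, and the sample titles named no Atoh7 mutation. In the third both genes were null. After the labels they are called the Atoh7 mutant (Bax heterozygous), the Bax mutant and the double mutant (both null). All groups therefore carried a mutant Bax allele, and no group had both genes intact. The labels gave no allele name, strain or number of pooled retinas, and did not say whether the 2 libraries of a group came from separate embryos. The p-values below measure at most the spread between these libraries, which may be technical.

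Retinal progenitor cells form the neural layer of the optic cup, divide while their nuclei move between the surfaces of the neural layer, and give rise to all neurons and the Müller glia of the retina. Signals between neighbouring cells through the Notch receptors keep a progenitor from differentiating, in part through repressors of the Hes and Hey families. As a cell becomes neurogenic it switches on proneural factors such as Neurog2 and Atoh7 and leaves the cycle. Atoh7 encodes the transcription factor needed for most retinal ganglion cells, the first neurons to form, and the product of Bax permeabilizes the outer mitochondrial membrane in dying cells. Ganglion cells are known as the source of Sonic hedgehog (Shh) for the progenitors.

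The 4 genes that mark these cells were Sfrp2, a secreted Wnt modulator, Fgf15, a secreted fibroblast growth factor, Ccnd1, the cyclin D1 that drives entry into S phase, and Hes1, a repressor downstream of Notch. Sfrp2 lies on chromosome 3, 83766321 to 83774316 (plus strand), Fgf15 on chromosome 7, 144896531 to 144900953 (plus strand), Ccnd1 on chromosome 7, 144929931 to 144939925 (minus strand), and Hes1 on chromosome 16, 30064384 to 30067796 (plus strand), all in GRCm38. Of these, the RefSeq promoter table (GRCm38.p6) held Sfrp2. Its promoter is shown with that of Hes5, another Notch effector, because the 2 genes moved in opposite directions between progenitor and neurogenic cells (below). Each window runs from 250 bases before to 50 bases after the start of the gene, on the plus strand, at chr3:83766071-83766370 for Sfrp2 and chr4:154960673-154960972 for Hes5. Capitals mark GTGGGAA, a binding motif of Rbpj, the DNA-binding partner of Notch, or its reverse complement TTCCCAC.
Sfrp2: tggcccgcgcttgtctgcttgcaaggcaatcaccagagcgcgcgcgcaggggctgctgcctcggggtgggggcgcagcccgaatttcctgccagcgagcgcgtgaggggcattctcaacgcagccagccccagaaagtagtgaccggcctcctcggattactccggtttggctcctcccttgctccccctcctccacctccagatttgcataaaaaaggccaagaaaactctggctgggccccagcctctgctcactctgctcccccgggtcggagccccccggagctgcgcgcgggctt
Hes5: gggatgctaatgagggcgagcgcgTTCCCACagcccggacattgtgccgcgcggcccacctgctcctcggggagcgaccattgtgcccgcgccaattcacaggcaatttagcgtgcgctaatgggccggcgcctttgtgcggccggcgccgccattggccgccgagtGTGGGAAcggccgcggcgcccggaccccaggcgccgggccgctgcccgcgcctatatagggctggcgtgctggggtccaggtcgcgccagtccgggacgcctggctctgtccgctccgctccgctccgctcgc
The Hes5 window held the motif at 2 places and the Sfrp2 window at 0. On both strands together, the motif occurred in 2097 of 32851 promoter windows of this length (6.38%). It occurred in 1 of the 16 windows found for the progenitor identity list (6.25%) and in 3 of the 22 for the Notch list (13.6%). A match describes these letters and is not evidence of a bound site.

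Progenitors made up 63.6% and 57.9% of the cells of the Atoh7 mutant libraries (6117 of 9622 and 6571 of 11345), 60.2% and 58.9% in the Bax mutant (6177 of 10268 and 5456 of 9269), and 64.5% and 59.7% in the double mutant (9507 of 14730 and 7054 of 11816). The means were 60.7% ± 4.0, 59.5% ± 0.916 and 62.1% ± 3.42 (SD, n = 2). The groups overlapped. No test was run on the shares, since 2 libraries against 2 cannot reach a p of 0.05 in an exact permutation.

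The libraries differed in ways that touch the results below. Progenitor UMI totals ranged from 14053912 to 38954120, and the median progenitor held 2836 and 2321 UMIs in the Atoh7 mutant, 5869 and 6977 in the Bax mutant, and 2057 and 1713 in the double mutant. Mitochondrial genes took 3.83% and 3.93% of progenitor UMIs in the Bax mutant and between 1.06% and 1.16% in the other 4 libraries. Genes of ribosomal proteins took 32.8% and 32.6% against 20.4% to 25.6%. A set of 26 genes stood at 20 CPM (counts scaled to a common library total) or more in both Bax mutant libraries and at least 20-fold lower in all of the other 4, and 0 genes showed the reverse. Among them, Actg1, which encodes a cytoplasmic actin, stood at 1046 and 1021 CPM in the Bax mutant and between 11.7 and 16.1 CPM elsewhere. The same 26 genes met this rule in neurogenic cells, and 25 of them in ganglion cells. In the contrasts with the Bax mutant, a library batch, or another annotation used for counting, and the genotype cannot be told apart. The contrast of the double mutant with the Atoh7 mutant lies on 1 side of this split.

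The 2 double mutant libraries shared cell barcodes. They had 2596 barcodes in common, against 126 to 223 for any other pair of libraries, and 89.4% of the shared ones had the same cell type in both (34.3% to 46.0% in the other pairs). The UMI total of a shared barcode in replicate 1 was a median of 0.380 times that in replicate 2, with quartiles of 0.372 and 0.390. Of the shared barcodes, 1662 were progenitors in both libraries. Each count of genes below was recomputed without these cells.

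Bax and Atoh7 were then checked in the progenitors. Bax (chromosome 7, 45461697 to 45466898) stood at 126 and 89.0 CPM in the Atoh7 mutant, 11.8 and 10.7 CPM in the Bax mutant, 37.9 CPM in the library labelled double mutant replicate 1, and 5.83 CPM in replicate 2. Its neighbour Ftl1, which encodes ferritin light chain, showed the same order, at 1465 and 1050, 81.9 and 126, and 425 and 38.5 CPM. Replicate 1 thus lay between the heterozygous and the null libraries at both genes, against its label. Within it, the 1789 progenitors whose barcodes were shared with replicate 2 held 7.76 CPM of Bax and 80.7 CPM of Ftl1, and the 7718 others held 41.8 and 470 CPM. In the edgeR fit, Bax was higher in the Atoh7 mutant than in the Bax mutant by 2.72 ± 0.56 (log2 ± standard error, SE; adjusted p = 0.00299). The difference between the double mutant and the Atoh7 mutant was -2.29 ± 0.55 (adjusted p = 0.0816). Without replicate 1 it was -4.36, and without replicate 2 it was -1.54. Any direction drawn from the double mutant rests in part on replicate 1.

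Atoh7 (chromosome 10, 63099651 to 63101279) had 0 UMIs in all cells of the 4 Atoh7 null libraries. In the Bax mutant libraries it had 22 and 19 UMIs in progenitors, or 0.57 and 0.49 CPM, against 22.5 and 21.1 CPM in neurogenic cells. Atoh7 was thus read in the class next to the progenitors and barely in the progenitors themselves.

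The 4 markers were checked against the authors' other cell types and were highest in the progenitors. Their summed level was 5608 to 7532 CPM in the progenitors of the 6 libraries, 2333 to 3235 CPM in neurogenic cells, and 275 to 1626 CPM in ganglion cells, cones and horizontal cells. With each cell thinned to 1000 UMIs, 72.6% to 89.6% of progenitors held a UMI of Sfrp2, against 5.85% to 22.7% of ganglion cells, whose median depth was 1834 to 6683 UMIs. Without thinning, the share of progenitors with Sfrp2 was 94.4% to 96.5%. The classes were drawn by the authors from these same UMIs, so contrasts between classes describe the annotation and carry no test.

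**Figure D1:**
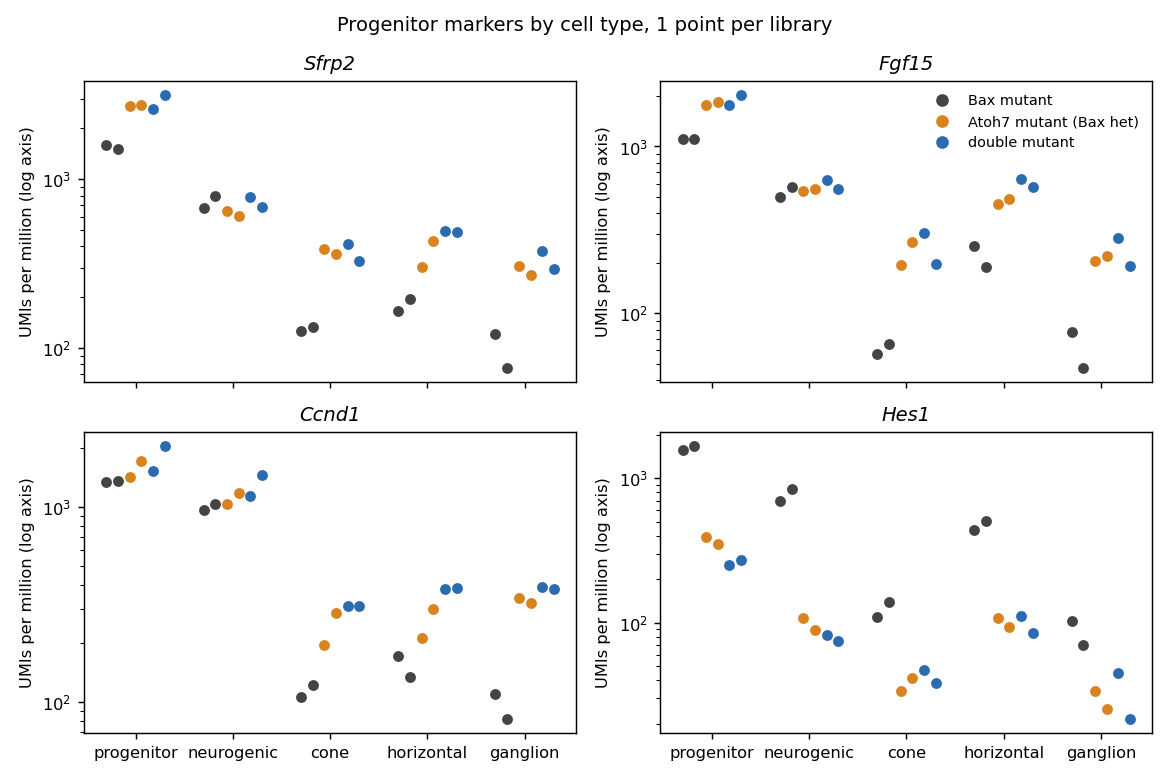
Level of Sfrp2, Fgf15, Ccnd1 and Hes1 (CPM, log axis) in the authors' 5 cell types, with 1 point for each of the 6 libraries coloured by group. Progenitors hold the highest level of each marker in every library, and Hes1 is separated by group, with both Bax mutant libraries at 1576 and 1673 CPM and the other 4 between 249 and 394 CPM.

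Markers of other cell types were low in the progenitors, but their unscaled levels split by group. The summed level of 6 neurogenic markers (Neurog2, Hes6, Dll1, Gadd45a, Btg2 and Atoh7) was 613 and 621 CPM in the Atoh7 mutant, 378 and 362 CPM in the Bax mutant and 648 and 649 CPM in the double mutant, against 2894 to 6578 CPM in neurogenic cells. Ganglion cell markers (9 genes) summed to 92.2 and 84.8 CPM in the Bax mutant and to 130 to 160 CPM elsewhere. Horizontal and amacrine markers summed to 18.9 and 17.0 CPM in the Bax mutant and to 46.9 to 57.6 CPM elsewhere. Before scaling, these lists were lowest in Bax mutant progenitors without overlap. Cone markers behaved the same way (16.2 to 19.9 against 27.7 to 39.5 CPM), with Rcvrn at 0 in all 6 libraries. The scale factors of the genotype comparison below were 0.766 and 0.760 in the Bax mutant and 1.105 to 1.235 elsewhere. Dividing by them raises the Bax mutant levels and lowers the others. After this division the ganglion and cone sums of the Bax mutant overlap those of the other libraries. The neurogenic sums and the horizontal and amacrine sums stay lowest in the Bax mutant. No test was run on these sums.

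Markers of tissues outside the neural retina went mostly the other way. Erythroid globins summed to 1070 and 917 CPM in the Bax mutant, 114 and 18.8 CPM in the Atoh7 mutant, and 239 and 9.61 CPM in the double mutant. Pigment epithelium markers summed to 9.54 and 11.2 CPM in the Bax mutant and 3.65 to 5.21 CPM elsewhere, with Rpe65 at 0 throughout. Lens crystallins summed to 4.48 and 6.47 against 0.742 to 1.65 CPM, and mesenchymal markers to 12.8 and 14 against 5.88 to 9.02 CPM. Endothelial markers summed to 43.6 and 45.5 against 77.3 to 85.5 CPM, and microglial markers to between 0.640 and 3.87 CPM in all 6. The part of these levels in the results below was not tested.

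The progenitor programme was first described against the neurogenic cells of the same library. Up to the comparison of genotypes, pairs of values without a group name are in the order Atoh7 mutant, Bax mutant, double mutant. Sfrp2 stood at 2717 and 2763 CPM in progenitors of the Atoh7 mutant, 1586 and 1508 CPM in the Bax mutant, and 2619 and 3163 CPM in the double mutant. In neurogenic cells it stood at 647 and 604, 678 and 792, and 779 and 684 CPM in the same order. Progenitors held more Sfrp2 than neurogenic cells in all 6 libraries, by 0.93 to 2.21 on the log2 scale, and the ratio was smallest in the 2 Bax mutant libraries. Fgf15 stood at 1780 and 1836, 1103 and 1106, and 1771 and 2042 CPM in progenitors, 0.95 to 1.88 (log2) above neurogenic cells, and again least in the Bax mutant.

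Hes1 exceeded its neurogenic level by 0.99 to 1.97 (log2). Its levels were 394 and 351 CPM in progenitors and 108 and 88.6 CPM in neurogenic cells of the Atoh7 mutant, 1576 and 1673 against 694 and 842 CPM in the Bax mutant, and 249 and 272 against 82.7 and 74.3 CPM in the double mutant. Hes1 was thus higher in the Bax mutant in both classes. Ccnd1 marked the classes least, at 0.41 to 0.54 (log2) in the 6 libraries, with 1428 and 1725, 1342 and 1365, and 1530 and 2056 CPM in progenitors. Neurogenic cells retained much of this cyclin.

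The genes with the highest ratio in every library, among those at 50 CPM or more, were not mainly the classical eye-field factors. The highest lowest-of-6 ratio was that of Ccnd2, the cyclin D2 of the peripheral retina, at 1.64 to 2.80 (log2). Next came Aldh1a1, the retinaldehyde dehydrogenase of the dorsal retina, at 1.41 to 2.40, and Id3, an inhibitor of basic helix-loop-helix factors, at 1.27 to 2.69. The other 12 of the first 15 were Espn, Cyp26a1, Fgf3, Sparc, Apoe, Col9a1, Fos, Cp, Mest, Id2, Necab2 and Meg3. They include an enzyme that degrades retinoic acid (Cyp26a1), a growth factor (Fgf3), matrix proteins (Sparc, Col9a1) and a second Id protein (Id2). Id3 stood at 1045 and 862, 1086 and 1144, and 1070 and 1128 CPM in progenitors against 198 and 168, 365 and 475, and 255 and 174 CPM in neurogenic cells. Its progenitor levels were close in all 6 libraries, and its neurogenic levels were highest in the Bax mutant.

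The eye-field factors had smaller ratios. Lhx2 exceeded its neurogenic level by 0.46 to 1.05 (log2), Rax by 0.40 to 0.55 and Sox2 by 0.33 to 0.59. Pax6 lay between -0.05 and 0.32. Ganglion and amacrine precursors are known to keep Pax6.

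At the other end, Hes6, a neurogenic member of the Hes family, was 2.75 to 2.97 (log2) lower in progenitors than in neurogenic cells. Its progenitor levels were 332 and 349, 217 and 211, and 353 and 376 CPM, against 1421 to 2948 CPM in neurogenic cells. Btg2, an antiproliferative gene of neurogenic divisions, had log2 ratios of -3.35 to -2.09, and Rbpj had -2.10 to -1.39. Sox4 and Sox11, factors of early neurons, had ratios of -1.76 to -1.51 and -1.43 to -1.32. Hes5 stood at 447 and 406, 307 and 310, and 542 and 542 CPM in progenitors and at 969 and 845, 795 and 706, and 1132 and 1133 CPM in neurogenic cells. The 2 Notch effectors therefore went opposite ways across the classes in all 6 libraries, with Hes1 higher in progenitors and Hes5, whose promoter is shown above, higher in neurogenic cells.

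**Figure D2:**
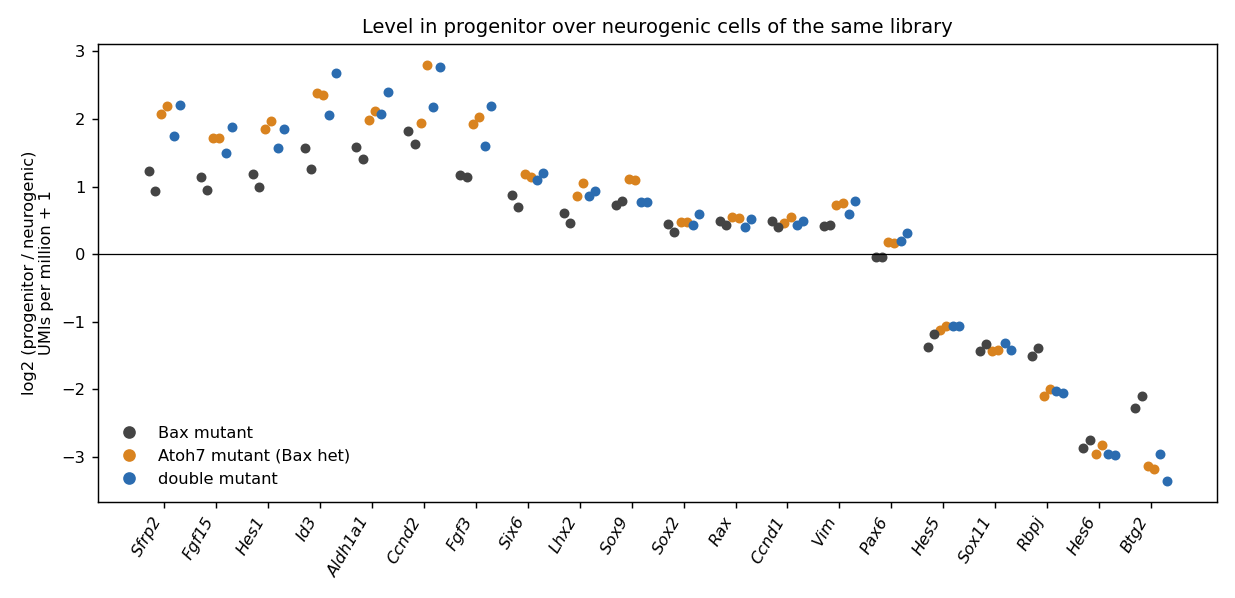
Log2 ratio of the level in progenitors to that in neurogenic cells of the same library (CPM + 1) for 20 genes, 1 point per library coloured by group. Points of the Bax mutant libraries sit closest to 0 for Sfrp2 (0.93 and 1.22), Hes1 and Id3, while Ccnd1 lies between 0.41 and 0.54 in all 6.

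The genes that varied most among the progenitors of a library were of several kinds. On cells thinned to 1000 UMIs, the variance of a gene's UMIs over their mean had a median of 1.01 over 2069 genes, close to that of random sampling. It exceeded 1.5 for 21 genes. The highest were the nuclear RNA Malat1 at 6.59 (median of the 6 libraries), Aldh1a1, a retinaldehyde dehydrogenase of the dorsal retina, at 3.51 (range 3.08 to 3.88), the actin-binding Tmsb4x at 3.41, the actin Actb at 2.39 and the long noncoding RNA Meg3 at 2.11. Of the 4 markers, Fgf15 (1.66, range 1.49 to 1.75) and Sfrp2 (1.65, 1.2 to 1.83) were above 1.5, and Ccnd1 (1.48) and Hes1 (1.21) were not. Others above it were the mitochondrial mt-Cytb (1.68) and mt-Nd1 (1.60), Cst3 (1.56), Ube2c (1.94) and Cenpf (1.79) of mitosis, Hes6 (1.75), Hes5 (1.52), Id3 (1.72) and Ccnd2 (1.60).

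Cells were placed in 3 ranges by the UMIs of fixed S-phase (43 genes) and G2/M (51 genes) lists after thinning. A cell with 5 or more G2/M UMIs was called G2/M-rich, a remaining cell with 5 or more S-phase UMIs S-rich, and the rest neither. These are ranges of a count, not cell types. The G2/M-rich range held 57.5% and 59.2% of progenitors in the Atoh7 mutant, 61.1% and 60.5% in the Bax mutant and 59.2% and 62.7% in the double mutant. The double mutant overlapped both other groups, and the Atoh7 mutant lay below the Bax mutant. The S-rich range held 18.9% and 20.7%, 15.3% and 14.5%, and 17.6% and 20.1%. The Bax mutant libraries were lowest in S-rich cells, with a mean of 14.9% ± 0.510 against 19.8% ± 1.22 and 18.9% ± 1.77 (SD, n = 2), and no test was run. Thinning left out 119 and 116 progenitors of the Bax mutant, 515 and 683 of the double mutant and 0 of the Atoh7 mutant. Without thinning, the S-rich means were 2.16% in the Bax mutant, 9.79% in the Atoh7 mutant and 12.9% in the double mutant. The G2/M-rich means were 96.0%, 84.5% and 77.2% in the same order, with no overlap between groups in G2/M-rich cells. The cut of 5 UMIs was kept there, so unthinned shares depend on cell depth. Median depth was highest in the Bax mutant and lowest in the double mutant. Without the shared barcodes, replicate 1 of the double mutant had 55.7% G2/M-rich cells, 18.5% S-rich cells and 25.9% in neither range.

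Each marker was read in all 3 ranges, at levels that differed by gene. Sfrp2 had a median over the 6 libraries of 2682 CPM in neither range, 2984 CPM in S-rich cells and 2673 CPM in G2/M-rich cells. Fgf15 had 1593, 1713 and 1920 CPM and was higher in G2/M-rich than in neither cells in all 6 libraries (1565 against 1914 CPM in the first, 771 against 1291 CPM in Bax mutant replicate 1). Ccnd1 was highest in S-rich cells in 5 of 6 libraries, with medians of 1452, 1813 and 1523 CPM. In Bax mutant replicate 2 its S-rich level was 1441 CPM and its G2/M-rich level 1496 CPM. Hes1 was lower in G2/M-rich than in neither cells in all 6 libraries, with log2 ratios of -0.30 to -0.09.

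Regional and quiescence-related genes had a different profile over the same ranges. Aldh1a1 stood at 495 and 367, 522 and 509, and 534 and 629 CPM in cells of neither range, and at 285 and 169, 284 and 317, and 314 and 292 CPM in G2/M-rich cells. Ccnd2 went from a median of 179 CPM in neither to 120 CPM in S-rich and 64.4 CPM in G2/M-rich cells. Cdkn1c, an inhibitor of cyclin-dependent kinases, stood at 303 and 250, 273 and 252, and 319 and 333 CPM in neither and at 161 and 118, 147 and 158, and 197 and 158 CPM in G2/M-rich cells. These 3 genes were higher in neither than in G2/M-rich cells in all 6 libraries. Ccnd2 is known both as a G1 cyclin and as a gene of the ciliary margin.

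Some genes of the neurogenic step ran the other way. Foxn4, a factor of amacrine and horizontal precursors, stood at 34.6 to 55.1 CPM in neither and 54.2 to 91.0 CPM in G2/M-rich cells. Cdkn2d, another inhibitor of cyclin-dependent kinases, stood at 13.7 to 27.1 CPM and 56.6 to 85.9 CPM. Both were higher in G2/M-rich than in neither cells in all 6 libraries. E2f1, which drives genes of DNA synthesis, peaked in S-rich cells in all 6 (49.8 to 133 CPM). The cells of the G2/M-rich range were also deeper before thinning, with 3106 against 2461 UMIs at the median in Atoh7 mutant replicate 1, and the part of depth was not tested.

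**Figure D3:**
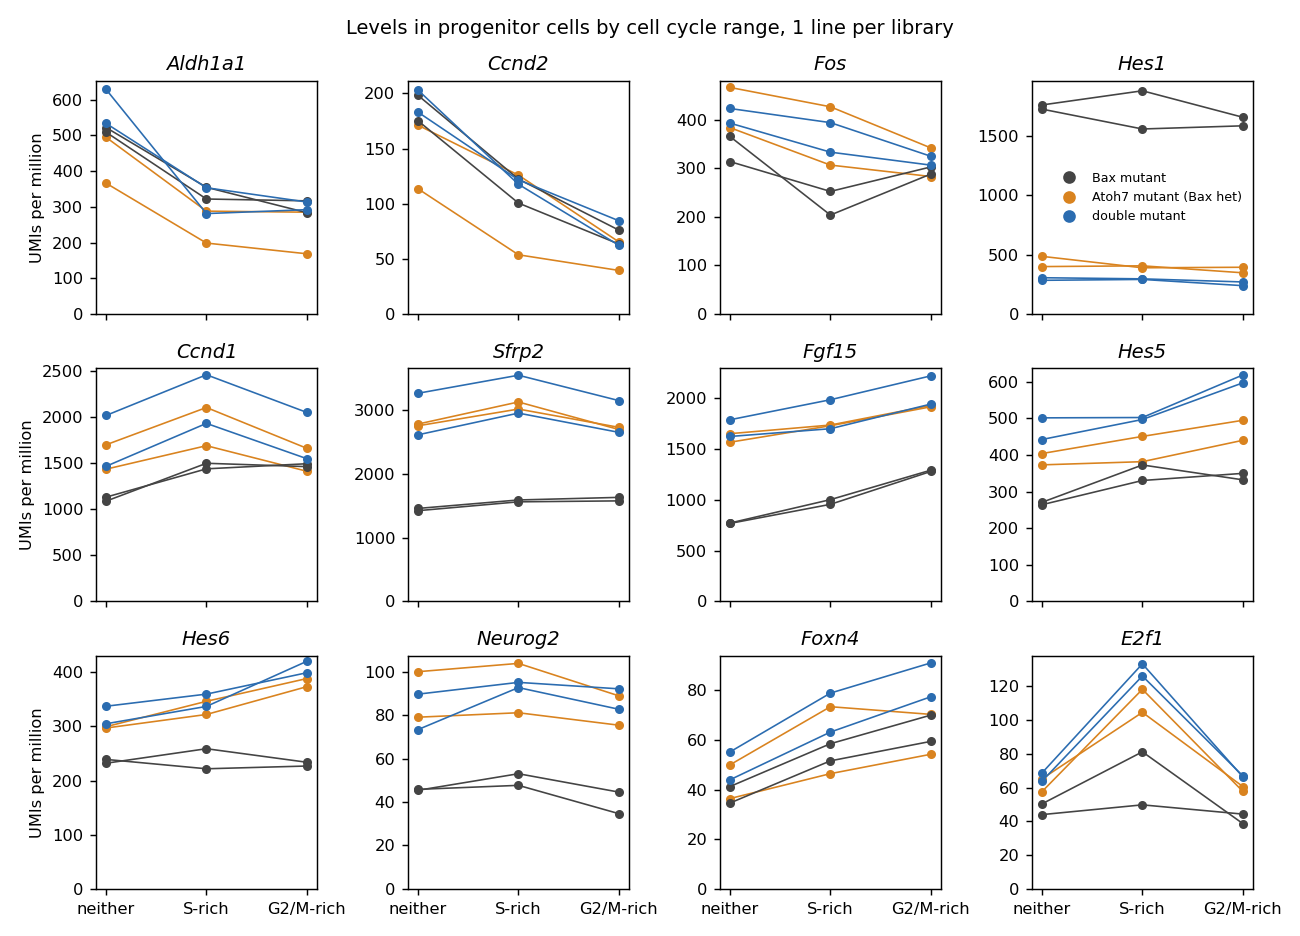
Level (CPM of thinned cells) of 12 genes in progenitors of neither range, S-rich and G2/M-rich progenitors, with 1 line per library coloured by group. In all 6 libraries Aldh1a1 and Ccnd2 are lower and Fgf15 and Foxn4 higher in the G2/M-rich range than in neither, and E2f1 is highest in the S-rich range.

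Position in the retina was the other axis among progenitors. Cells with a UMI of Aldh1a1 held 27.1 to 48.1 CPM of Vax2, the homeobox factor of the ventral retina, and cells without it 86.7 to 120 CPM, over the 6 libraries. Aldh1a1 was seen in 11.3% to 17.3% of thinned progenitors and in 1.67% to 5.85% of ganglion cells. Whole lists gave smaller differences. Cells with a UMI of the dorsal list, which includes Aldh1a1, held 117 to 213 CPM of the ventral list and cells without one 214 to 277 CPM, lower in all 6 libraries. Cells with the nasal list held 375 to 644 CPM of the temporal list and those without 496 to 800 CPM, again lower in all 6. With Otx1, a gene of the ciliary margin, Vax2 had no common direction over the libraries (64.5 to 161 CPM with it and 78.7 to 106 CPM without).

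Levels of Hes6 and Neurog2 also differed between progenitors with and without a UMI of a marker. Cells with Sfrp2 held 190 to 350 CPM of Hes6 and cells without it 333 to 670 CPM. Cells with Fgf15 held 199 to 347 CPM of Hes6 and those without 271 to 561 CPM. With Ccnd1 the sign was the reverse for Neurog2, the proneural factor, at 43.9 to 101 CPM in cells with the cyclin and 29.8 to 70.0 CPM in cells without. The authors had divided the progenitors into 84 clusters of 73 to 1107 cells. Of these, 14 held over 80% Bax mutant cells and 27 under 20%. Across the other 43, Sfrp2 ranged from 414 to 3227 CPM, Fgf15 from 290 to 2683 CPM, Neurog2 from 10.8 to 167 CPM and the summed ciliary margin list from 134 to 2123 CPM.

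The genotype groups were compared on UMIs summed over the progenitors of each library, with edgeR's quasi-likelihood test on 13396 genes. A gene with a Benjamini-Hochberg adjusted p under 0.05 is said to be called, and levels from here on are TMM-scaled CPM (TMM, a trimmed mean of log ratios, sets the library scale). The first contrast, the double mutant minus the Atoh7 mutant, compares null with heterozygous Bax in the absence of Atoh7. It had 269 calls (2.01% of genes tested), 8 higher (0.0597%) and 261 lower (1.95%), and 1890 genes (14.1%) had an unadjusted p under 0.05. The count was unstable. DESeq2 gave 369 calls, the absence of a filter on low counts 144, and the 4 compared libraries alone 153. Leaving out the shared barcodes gave 98 calls when they were removed from replicate 1 and 81 when removed from both. The count was 56 without Atoh7 mutant replicate 1, 2 without its replicate 2, 154 and 153 without Bax mutant replicates 1 and 2, 655 without double mutant replicate 1 and 507 without its replicate 2.

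Of the progenitor identity list (22 genes, all tested), 0 were called higher and 2 lower in this contrast, Hes1 and Pax6. Hes1 stood at 219 and 220 CPM in the double mutant and at 355 and 318 CPM in the Atoh7 mutant, a difference of -0.62 ± 0.11 (log2 ± SE, adjusted p = 0.0232). Pax6, the eye-field factor, stood at 504 and 443 against 686 and 692 CPM (-0.54 ± 0.10, adjusted p = 0.0337). Neither gene overlapped between the groups, but Hes1 lost its call in 7 and Pax6 in 9 of 17 alternatives. The other 20 genes were not called. Sfrp2, at 2306 and 2562 against 2454 and 2503 CPM, had a difference of -0.03 ± 0.12 (adjusted p = 0.955). The levels of Sfrp2 overlapped.

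The signalling and cycle lists had 0 to 2 calls each in this contrast, where 2.01% of all genes were called. Counts this small do not set a list apart from that share. Spry2, a feedback inhibitor of FGF signalling, was the 1 call among 16 FGF genes, at 10.9 and 7.15 against 20.4 and 24.5 CPM (-1.29 ± 0.17, adjusted p = 0.0113). The S-phase list had 1 call of 43, Hells, a chromatin remodeller (118 and 90.5 against 163 and 186 CPM, -0.74 ± 0.12, adjusted p = 0.0216). The G2/M list had 2 of 51, Hmgb2, a chromatin protein of dividing cells (584 and 626 against 962 and 1134 CPM, -0.79 ± 0.12, adjusted p = 0.0176), and Lbr, the lamin B receptor (-0.39, adjusted p = 0.0314). All 4 fell, but Lbr lost its call in 9, Hells and Hmgb2 in 4 each, and Spry2 in 1 of 17 alternatives. The hedgehog, Wnt, G1, dorsal, ventral, nasal, temporal, ciliary margin, neurogenic onset and p53 and stress lists had 0 calls at an adjusted p under 0.05.

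Replication-dependent histone genes made up the largest listed group among the calls. Of 61 tested, 20 were lower in the double mutant and 0 higher, with a median of -0.93 (log2). Hist1h2bm stood at 16.5 and 16.0 against 36.2 and 41.3 CPM (-1.25 ± 0.10, adjusted p = 0.0022) and kept its call in all 17 alternatives. Hist1h2bb stood at 10.4 and 7.49 against 21.5 and 23.9 CPM (-1.32 ± 0.15, adjusted p = 0.00761). Histone genes are near-identical copies, mostly without a poly(A) tail, so the level of a single gene is uncertain in a poly(A) library. Of the ribosomal protein genes, 7 of 78 were lower, such as Rps29, at 886 and 475 against 2300.5 and 2339.5 CPM (-1.77 ± 0.26, adjusted p = 0.0127). Here the 2 double mutant libraries also differed from each other.

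The genes called higher by the rule for named genes changed little. Ankrd37, a hypoxia-responsive gene, stood at 37.1 and 31.8 against 25.3 and 25.3 CPM (0.45, adjusted p = 0.0425). Dab2ip, a regulator of Ras signalling, had 36.1 and 32.0 against 25.5 and 24.7 CPM (0.44, adjusted p = 0.0386), and Ppp1r15a, a gene of the integrated stress response, 23.7 and 21.5 against 16.9 and 16.6 CPM (0.43, adjusted p = 0.0489). The rule named only genes whose groups did not overlap, so the lack of overlap here is set by the rule. The calls were lost in 9, 10 and 13 of 17 alternatives.

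The contrasts with the Bax mutant asked how progenitors without Atoh7 differ from those with it. The double mutant minus the Bax mutant differs in Atoh7 by label, and the Atoh7 mutant minus the Bax mutant in both genes. Pairs of values without a group name are in the order double mutant, Atoh7 mutant, Bax mutant from here on, and paired differences in the order of the contrasts. The contrasts share the Bax mutant libraries, so their values stand side by side and do not replicate each other. The first had 7222 calls (53.9%), 3596 higher (26.8%) and 3626 lower (27.1%), and the second 7119 (53.1%), 3570 higher (26.6%) and 3549 lower (26.5%). Without scaling, log2 differences shifted by a median of 0.64 in the first and 0.54 in the second (0.10 in the contrast of the 2 Atoh7 null groups, the double and the Atoh7 mutant). The share of calls in the higher direction then went from 49.8% to 90.6% and from 50.1% to 90.1%, and in the contrast of the Atoh7 null groups from 2.97% to 12.8%. With most genes called, a listed gene's call says little, and directions of small size depend on the scaling.

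Of the progenitor identity list, 3 genes were called higher and 9 lower in the double mutant than in the Bax mutant (median -0.21, against 0.01 for all genes), and 3 and 12 in the Atoh7 mutant (median -0.36, against 0.00). Hes1 stood at 2057 and 2204 CPM in the Bax mutant against 219 and 220 CPM in the double mutant and 355 and 318 CPM in the Atoh7 mutant, differences of -3.28 ± 0.12 (adjusted p = 7.9e-08) for the double mutant and -2.66 ± 0.11 (adjusted p = 3.08e-07) for the Atoh7 mutant. This was by far the largest change on the list. Sfrp2 was not called, at 2070 and 1986 CPM in the Bax mutant (0.26 ± 0.12, adjusted p = 0.086; 0.29 ± 0.12, adjusted p = 0.0637). Ccnd1 was not called either, at 1752 and 1797 CPM in the Bax mutant against 1347 and 1665 CPM in the double mutant and 1289 and 1563 CPM in the Atoh7 mutant (-0.24 ± 0.14, adjusted p = 0.19; -0.32, adjusted p = 0.0903). Without scaling both had the opposite sign, at 0.41 and 0.22.

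Among Notch genes, the targets did not move together. Of the 22 tested, 7 were called higher and 5 lower in the double mutant, and 9 and 5 in the Atoh7 mutant. Hey1, an effector like Hes1, stood at 34.3 and 37.5 CPM in the double mutant, 34.4 and 40.1 CPM in the Atoh7 mutant and 18.6 and 14.7 CPM in the Bax mutant (1.11 ± 0.12, adjusted p = 9.84e-05; 1.16 ± 0.12, adjusted p = 7.89e-05). Its direction was opposite to that of Hes1. Dll1, a Notch ligand of neurogenic cells, stood at 10.9 and 11, 15.7 and 14.5, and 6.56 and 6.63 CPM (0.73 ± 0.11, adjusted p = 0.000439; 1.2 ± 0.10, adjusted p = 2.63e-05). Hes5 was not called, at 478 and 439, 403 and 368, and 401 and 408 CPM (0.18, adjusted p = 0.139; -0.07, adjusted p = 0.564).

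Genes of neurogenic onset were mostly called higher. Of 24 tested, where 26.8% of all genes were higher, 15 were higher and 1 lower in the double mutant (median 0.59) and 16 and 2 in the Atoh7 mutant (median 0.64). Sox4 stood at 372 and 396, 357 and 391, and 143 and 144 CPM (1.42 and 1.38). Neurog2 stood at 66.9 and 69.7, 63.6 and 76.4, and 53.6 and 44.6 CPM (0.48, adjusted p = 0.00659; 0.51, adjusted p = 0.00462). Atoh7, 22 and 19 UMIs in the Bax mutant and 0 elsewhere, was the fall on this list for the double mutant. The neurogenic markers summed over the progenitors above all belong to this list, so their sum is not a separate observation. The part of neurogenic RNA in the result was not tested.

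Genes of hypoxia and glycolysis and the histones also had more calls in the higher than in the lower direction. Of 26 hypoxia and glycolysis genes, 15 were higher and 5 lower in the double mutant and 13 and 5 in the Atoh7 mutant. Without the library labelled double mutant replicate 1 the first split was 15 and 9. Slc2a1, the glucose transporter of these cells, stood at 417 and 450, 461 and 399, and 125 and 122 CPM (1.81 ± 0.10, adjusted p = 1.95e-06; 1.80, adjusted p = 2.24e-06). Slc16a3, a lactate exporter, stood at 57.8 and 48.6, 53.6 and 44.0, and 13.8 and 14.3 CPM (1.92 ± 0.12 and 1.80). Both were lowest in the Bax mutant without overlap. Pgam1, a glycolytic enzyme, went the other way, and it was among the 26 genes near 0 outside the Bax mutant. Histones had 31 higher and 11 lower of 61, and 45 and 3, and ribosomal protein genes 0 higher and 66 lower of 78 in both contrasts.

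Cycle lists were called in both directions. In the double mutant 8 S-phase genes were higher and 15 lower of 43, and 11 and 19 of 51 G2/M genes; in the Atoh7 mutant the counts were 11 and 14, and 12 and 18. Over all genes, 26.8% were higher and 27.1% lower in the double mutant, and 26.6% and 26.5% in the Atoh7 mutant. In both cycle lists the lower calls outnumbered the higher ones, and this lean was not tested. Called higher and lower in the double mutant and then in the Atoh7 mutant were 2 and 5, then 5 and 5, of 16 FGF genes, 4 and 5, then 5 and 8, of 17 Wnt genes, and 3 and 5, then 5 and 9, of 18 genes of G1. The ciliary margin list had 4 and 3, then 3 and 7, of 11, and the p53 and stress list 9 and 6, then 11 and 6, of 20. Of the regional lists, dorsal genes had 0 higher and 3 lower of 8 in both contrasts, ventral genes 2 and 2, then 0 and 2, of 8, nasal genes 2 and 0 of 4 in both, and temporal genes 2 and 2 of 4 in both. Vax2 stood at 81.6 and 70.6, 74.1 and 82.2, and 137 and 141 CPM (-0.87 ± 0.09, adjusted p = 8.13e-05; -0.83, adjusted p = 0.000108). Hmx1, a factor of the nasal retina, stood at 148 and 131, 107 and 126, and 50.8 and 50.1 CPM (1.47 ± 0.10, adjusted p = 6.39e-06; 1.21, adjusted p = 2e-05). The Bax mutant was the high group for Vax2 and the low group for Hmx1. Zic2, a zinc-finger factor of the peripheral retina, stood at 37.8 and 38.0, 28.2 and 32.0, and 7.92 and 6.96 CPM (2.35 ± 0.10 and 2.02).

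In the hedgehog response list, the target Gli1 was near 0 in the 4 Atoh7 null libraries. Gli1 (chromosome 10, 127329882 to 127341974), a transcription factor that is itself induced by the pathway, had 284 and 251 UMIs in Bax mutant progenitors, 2 and 0 in the Atoh7 mutant and 3 and 2 in the double mutant. These were 7.36 and 6.44 CPM, 0.10 and 0, and 0.13 and 0.14 CPM. The pooled level in the Bax mutant was 50.4 times that in the double mutant (exact conditional 95% interval 21.5 to 156) and 128 times that in the Atoh7 mutant (35.3 to 1061). The intervals cover counting error only. The quasi-likelihood test gave adjusted p = 1.43e-06 and 1.46e-06. Neurogenic cells had 38 and 57 Gli1 UMIs in the Bax mutant and 0 in the other 4 libraries. Gli1 has the same pattern as the 26 genes, such as Actg1, that were near 0 in all libraries but those of the Bax mutant. Whether the libraries were counted with 1 annotation and software version is not given per library in the sources used here, so a difference in counting and the genotype cannot be told apart for Gli1.

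Hhip, a decoy receptor that is also induced by the pathway, had a smaller contrast. It had 72 and 96 UMIs in the Bax mutant, 15 and 13 in the Atoh7 mutant and 20 and 19 in the double mutant, ratios of 2.03 (1.42 to 2.95) to the double mutant and 2.87 (1.92 to 4.46) to the Atoh7 mutant. It was highest in the Bax mutant without overlap. In ganglion cells Hhip had the opposite order, at 0.477 and 0.183 CPM in the Bax mutant, 4.18 and 5.68 CPM in the Atoh7 mutant and 11.5 and 11 CPM in the double mutant.

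Ptch1, the main receptor and also a target, did not follow Gli1. It stood at 11.9 and 12.8 CPM in the Bax mutant, 15.6 and 13.7 CPM in the Atoh7 mutant and 12.4 and 14.6 CPM in the double mutant, before TMM scaling. Its fitted differences were -0.51 ± 0.11 (adjusted p = 0.00323) for the double mutant and -0.28 ± 0.11 (adjusted p = 0.0485) for the Atoh7 mutant, and without scaling they were 0.12 and 0.25. Its direction is therefore set by the scaling. The ligand gene Shh, looked at after the values of its targets were seen, had 22 and 34 UMIs in all cells of the Bax mutant, of which 21 and 32 lay in ganglion cells. In the other 4 libraries it had 0, 1, 0 and 2 UMIs. Over the 12 hedgehog genes tested, 3 were called higher and 6 lower in the double mutant and 1 and 6 in the Atoh7 mutant. Gas1, a co-receptor, was among the higher ones, at 63.9 and 67.4, 62.1 and 58.1, and 38.0 and 33.9 CPM (0.87 and 0.74).

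**Figure D4:**
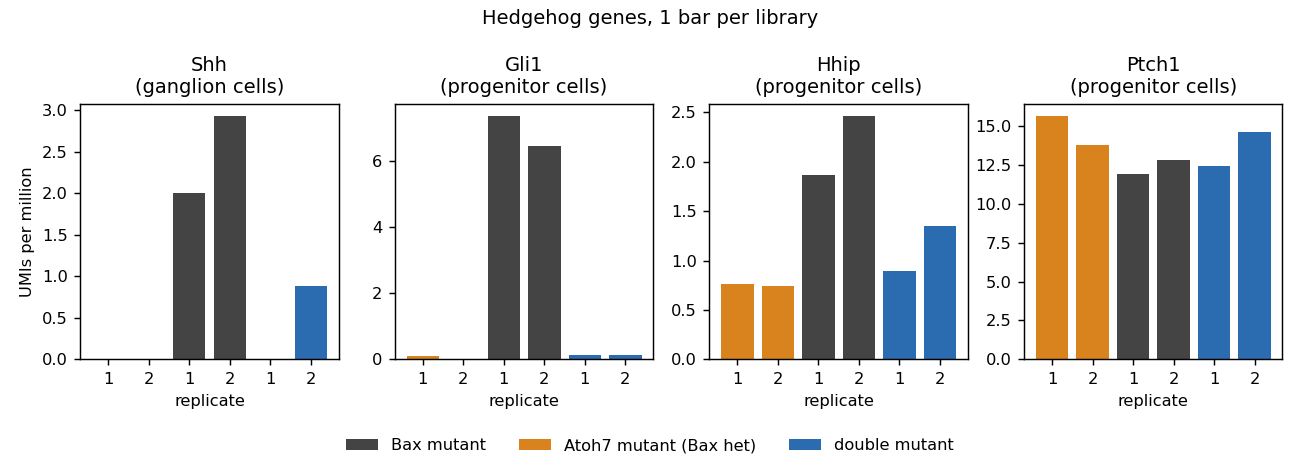
Level (CPM) of Shh in ganglion cells and of Gli1, Hhip and Ptch1 in progenitors, 1 bar per library coloured by group, axes from 0. Gli1 is at 7.36 and 6.44 CPM in the Bax mutant libraries and at 0.14 CPM or less in the other 4, while Ptch1 lies between 11.9 and 15.6 CPM in all 6.

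To compare groups in a way that a shift shared by both classes of a library cancels, the difference between progenitors and neurogenic cells was itself tested, with a term for the library and an interaction of class and group over 13371 genes. The double mutant minus the Bax mutant had 997 calls (7.46%), 434 higher (3.25%) and 563 lower (4.21%), and the Atoh7 mutant minus the Bax mutant 1116 (8.35%), 552 higher (4.13%) and 564 lower (4.22%). Higher means that the gene is more progenitor-weighted than in the Bax mutant. Without scaling the share of calls in the higher direction went from 43.5% to 67.1% and from 49.5% to 63.3%. The first count was 645 without Bax mutant replicate 1, 308 without its replicate 2 and 577 without double mutant replicate 2. The second was 743 and 418 without the same Bax mutant replicates, and 699 and 423 without Atoh7 mutant replicates 1 and 2. The double mutant minus the Atoh7 mutant had 0 calls (0%) in edgeR, with 640 genes (4.79%) at an unadjusted p under 0.05. It had 0 calls with RLE scaling and 1 without scaling.

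Genes of the progenitor identity list were more progenitor-weighted in the Atoh7 null groups than in the Bax mutant, in 15 of 22 genes for the double mutant (median 0.30, against -0.02 for all genes) and in 17 of 22 for the Atoh7 mutant (median 0.37, against 0.00), with 0 lower. The counts were 12 to 15 and 13 to 17 when each library was left out, and 15 and 17 without the shared barcodes. With the replicate number as a block in place of the library term they were 1 and 3. Several of these genes helped to define the classes, and the class boundary was drawn by the authors on the same UMIs, so a boundary placed differently in the Bax mutant would move these values and cannot be told apart from a change within cells.

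For Sfrp2 the progenitor to neurogenic ratio was 2.07 and 2.19 (log2) in the Atoh7 mutant, 1.22 and 0.93 in the Bax mutant, and 1.75 and 2.21 in the double mutant. The interaction was 0.83 ± 0.07 (adjusted p = 4.56e-11) for the double mutant and 1.02 ± 0.07 (adjusted p = 1.53e-13) for the Atoh7 mutant. The ratios of the 2 libraries of each group differed by more than this SE. The SE and adjusted p of this fit can therefore understate the spread between libraries, here and for the genes below. For Hes1 the ratios were 1.58 and 1.86, 1.86 and 1.97, and 1.18 and 0.99, with interactions of 0.56 ± 0.08 (adjusted p = 9.58e-07) and 0.81 ± 0.07 (adjusted p = 1.7e-11). For Fgf15 they were 1.5 and 1.88, 1.72 and 1.72, and 1.14 and 0.95 (0.57 ± 0.06, adjusted p = 1.07e-08; 0.64 ± 0.06, adjusted p = 3.48e-10). In each case both Bax mutant libraries lay below the other 4. Hes1 and Fgf15 each lost the call in 1 of 11 alternatives in both contrasts, and Sfrp2 kept it in all 11. Ccnd1 had ratios of 0.41 to 0.54 in all 6 libraries and was not called (-0.04 ± 0.04, adjusted p = 0.617; 0.02 ± 0.04, adjusted p = 0.853).

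Several other members of the list were called in both contrasts. Nr2e1, the orphan receptor Tlx of neural stem cells, had interactions of 0.67 and 0.74, and Lhx2 of 0.30 and 0.39. Id3 had 0.85 ± 0.09 (adjusted p = 1.39e-09) and 0.93 ± 0.09 (adjusted p = 2.11e-10), and lost its call in 1 of 11 alternatives in both contrasts. Hmga2, a chromatin protein of early progenitors, had 0.91 and 0.92, and Tcf7l1, a Wnt repressor, 0.78 and 0.89. For Tcf7l1 the progenitor levels were 34.8 and 30.9, 26.0 and 25.3, and 47.1 and 47.1 CPM, and the neurogenic levels 12.5 and 9.2, 8.36 and 7.54, and 24.9 and 29.0 CPM. Both classes were higher in the Bax mutant, and the neurogenic class by more. Rax, Sox2, Id1 and Lin28b were not called in either contrast.

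**Figure D5:**
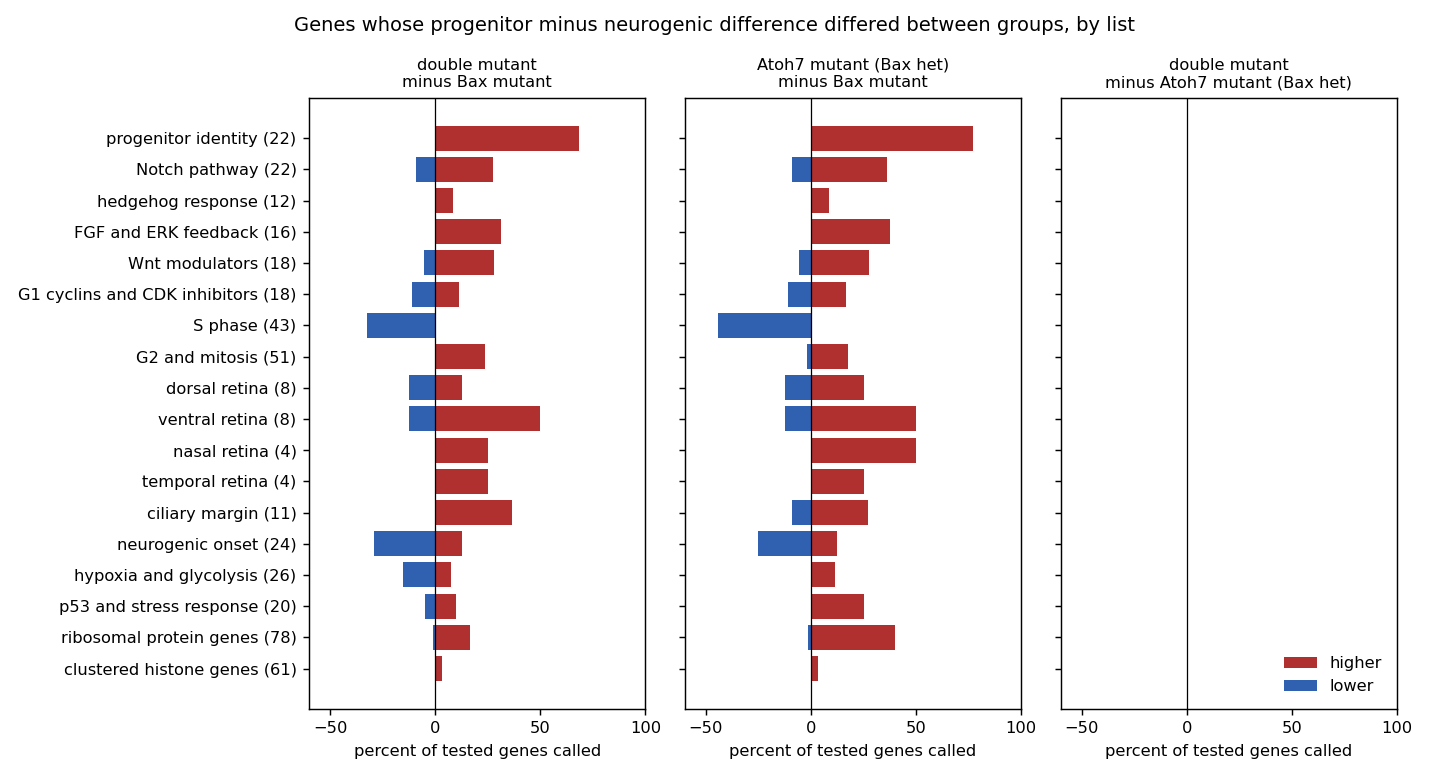
Share of the tested genes of each list (percent) that were called higher or lower in the progenitor minus neurogenic difference, in 3 panels for the 3 contrasts. The identity list has 15 and 17 of 22 genes higher in the contrasts with the Bax mutant, the S-phase list 14 and 19 of 43 lower, and the panel of the 2 Atoh7 null groups is empty because no gene was called.

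Genes of the neurogenic side mirrored these values in part. Btg2 had interactions of -0.98 ± 0.07 (adjusted p = 7.7e-13) and -1.0 ± 0.07 (adjusted p = 2.69e-13), Rbpj -0.66 ± 0.06 (adjusted p = 9.97e-10) and -0.64 ± 0.06 (adjusted p = 3.66e-10), and Neurog2 -0.67 ± 0.07 (adjusted p = 2.31e-08) and -0.71 ± 0.07 (adjusted p = 2.83e-09). Neurog2 lost its call in 1 of 11 alternatives in both contrasts. It stood at 606 and 794, 729 and 723, and 342 and 283 CPM in neurogenic cells, where the 4 Atoh7 null libraries were the highest. Of the 24 genes of neurogenic onset, 3 were higher and 7 lower in the double mutant, and 3 and 6 in the Atoh7 mutant.

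Hey1 was called in both contrasts among the Notch genes. Its unscaled level was 38.1 and 44.3 CPM in progenitors and 43.3 and 40.4 CPM in neurogenic cells of the Atoh7 mutant, 14.2 and 11.1 against 31.5 and 30.0 CPM in the Bax mutant, and 38.9 and 46.3 against 43.5 and 48.2 CPM in the double mutant. In the Bax mutant it was lower in progenitors than in neurogenic cells, and in the other 4 libraries the classes were close. The interactions were 1.11 ± 0.12 (adjusted p = 2.41e-08) and 1.23 ± 0.12 (adjusted p = 1.41e-09). Over the Notch list, 6 genes were higher and 2 lower in the double mutant and 8 and 2 in the Atoh7 mutant. Jag1, a ligand, was among the lower ones (-0.98 and -1.28), and Lfng, a modifier of the receptors, among the higher ones (0.43 and 0.41).

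Of the FGF list, 5 genes were higher and 0 lower in the double mutant and 6 and 0 in the Atoh7 mutant. Etv5, a target of FGF signalling, stood at 25.4 and 23.3, 25.6 and 27.0, and 38.1 and 39.3 CPM in progenitors and at 7.03 and 7.13, 6.02 and 5.85, and 20.8 and 24.5 CPM in neurogenic cells. Its interactions were 1.02 ± 0.18 (adjusted p = 9.54e-05) and 1.38 ± 0.18 (adjusted p = 5.48e-07). The growth factor genes Fgf3 (0.62 and 0.79) and Fgf9 (0.47 and 0.51) were also more progenitor-weighted. The ventral list had 4 higher and 1 lower in both contrasts, with Aldh1a3, the ventral retinaldehyde dehydrogenase, at 1.42 and 0.96 and Vax2 at 0.41 and 0.62. The ciliary margin list had 4 and 0, and 3 and 1.

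The cycle lists went apart from each other in the difference. The S-phase list had 0 higher and 14 lower of 43 in the double mutant (median -0.18) and 0 and 19 in the Atoh7 mutant (median -0.21), with Ccne2, the cyclin E2 of S-phase entry, at -0.48 and -0.64 and Pcna, the replication clamp, at -0.30 and -0.33. The count of S-phase genes lower was 4 without the library labelled double mutant replicate 1, and without Bax mutant replicate 2 it was 4 and 8. The G2/M list had 12 higher and 0 lower (median 0.14) and 9 and 1 (median 0.09). Without Atoh7 mutant replicate 2 the latter was 2 and 1.

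Outside the lists, the most progenitor-weighted genes by the rule for named genes included Gm266, Nr2f6, Lpar1 and Cp. Lpar1, a receptor for lysophosphatidic acid, stood at 93.3 and 104, 99.5 and 96.5, and 44.9 and 43.4 CPM in progenitors and at 21.7 to 27.9 CPM in neurogenic cells of all 6 libraries, so its interaction (1.13 and 1.28) came from the progenitors. Nr2f6, an orphan nuclear receptor, stood at 53.3 to 68.9 CPM in progenitors and at 141 and 136 CPM in neurogenic cells of the Bax mutant against 40.5 to 48.9 CPM in those of the other 4. Its interaction (1.31 and 1.28) came from the neurogenic cells. At the low end, Cotl1, an actin-binding protein, stood at 123 and 108, 108 and 99.8, and 207 and 207 CPM in progenitors and at 255 to 296 CPM in neurogenic cells (-0.93 and -0.92). Cacna1a, a calcium channel subunit, had -1.31 and -1.34.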

How the data were processed

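Single-cell RNA-seq libraries (10x Genomics 3' v2, per the labels' protocols) were processed by the authors; Cell Ranger 1.2.1 and the mm10 build are named per the submitters' processing notes, without their settings. The deposited matrix holds the raw UMI counts of the authors for 27998 genes, not normalized, and cell types and clusters came from the authors' deposited cell table. Its 2 further libraries (26078 of 93128 cells) matched no sample and were not used. The filters on cells were not given in the sources used here.

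Counts were summed per library over progenitors, filtered with filterByExpr, TMM-scaled and fitted in edgeR 4.0.16 (R 4.3.3) by quasi-likelihood, with 6 libraries and a group term. A second fit held progenitor and neurogenic sums with a library term and class by group. p-values were Benjamini-Hochberg adjusted over all genes tested, two-sided, at 0.05. Both fits were tested on simulated data. Cells were thinned to 1000 UMIs. In each library the top 8% of Scrublet scores (Scanpy 1.11.5) marked doublets, which were kept, and left out in an alternative. Positions came from GENCODE M21 (GRCm38).

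The members and lists were chosen with earlier results of these data known. Named genes were Atoh7, Bax and Ftl1, members of the lists and markers, up to 8 highest and 8 lowest log2 differences per contrast and fit (called, mean of 20 CPM in the higher group, groups not overlapping), the 15 genes with the highest lowest-of-6 ratio at 50 CPM or more, and the 20 with the highest variance over mean at 0.05 UMIs per cell or more. Xist, Tsix and genes of the Y chromosome were not named, and some listed genes are not reported here. Genes of low ratio and Shh were chosen after their values were seen. Alternatives were RLE or no scaling, DESeq2 1.42.0, no filter, the replicate number as a block, the 4 compared libraries alone, thinned counts, cells under 1000 UMIs or doublets left out, other UMI minimums and each library left out. Leaving out the shared barcodes, and no scaling in the second fit, were added after seeing the data.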

Additional observations from a re-analysis of the deposited data

Results flagged for a closer look

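For the 8 named genes listed here, the difference between progenitors and neurogenic cells itself differed between groups, by the interaction test in edgeR. They were picked from many. Fgf15, Hes1, Id3 and Neurog2 each lost the call in 1 of 11 alternatives in both contrasts. Sfrp2, Hey1, Btg2 and Rbpj kept it in all 11. Of 13371 genes, this test called 997 (7.46%) in the first contrast below and 1116 (8.35%) in the second. The interaction (log2) in the double mutant minus the Bax mutant, and in the Atoh7 mutant minus the Bax mutant, was 0.83 and 1.02 for Sfrp2, 0.57 and 0.64 for Fgf15, 0.56 and 0.81 for Hes1, 0.85 and 0.93 for Id3, and 1.11 and 1.23 for Hey1. It was -0.67 and -0.71 for Neurog2, -0.98 and -1.0 for Btg2, and -0.66 and -0.64 for Rbpj. The 2 contrasts share the Bax mutant libraries. The classes were drawn by the authors on these same UMIs. A class boundary placed differently in the Bax mutant cannot be told apart from a change within cells. For these genes the 2 Bax mutant libraries lay on 1 side of the other 4, as they did for depth and for the mitochondrial share.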

How the results depend on the processing

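No more than 2 libraries stood behind each group, and a batch cannot be told apart from the Bax mutant. For the double mutant minus the Atoh7 mutant in progenitors, 144 genes were called with no filter, 153 with 4 libraries, 98 and 81 without shared barcodes, and 2 to 655 with each library left out. For the progenitor minus neurogenic difference, leaving out libraries gave 308 to 966, 0 to 16 and 418 to 1298 calls (double mutant minus the Bax mutant, minus the Atoh7 mutant, and Atoh7 mutant minus the Bax mutant), and the second had 1 without scaling and 4 without a filter. Same-numbered libraries deviated together in the Atoh7 and double mutants (r = 0.45), whose replicates 1 also held more erythroid RNA, but not in the other pairs of groups (r = 0.03 and -0.12), and the labels give no source for a pairing, so the reported fit has no block. With the number as a replicate block, progenitor calls were 7300, 401 and 7200, and those of the difference, where this block replaces the library term, 66, 0 and 96, with 1 and 3 of the 22 identity genes called. The progenitor share of the Bax mutant was 61.0% without doublets. G2/M-rich shares (58.4%, 60.8% and 60.9% in the Atoh7 mutant, Bax mutant and double mutant) were 76.1%, 77.6% and 78.5% at 3 UMIs, 42.2%, 43.1% and 45.5% at 8, 55.8% and 57.4% for the first pair at 1500 UMIs, and 84.5%, 96.0% and 77.2% unthinned. S-rich shares (19.8%, 14.9%, 18.9%) were 15.9%, 12.8% and 14% at 3 UMIs, 15.7%, 7.97% and 15.8% at 8, 14.2% in the Bax mutant at 1500 UMIs, and 9.79%, 2.16% and 12.9% unthinned. Without scaling, the sign turned for Ccnd1 (0.41 and 0.22) and Ptch1 (0.12 and 0.25) in the contrasts with the Bax mutant, for Sfrp2 (0.077) and Fgf15 (0.076) in the double mutant minus the Atoh7 mutant, and for Ccnd1 in the difference of the double and Bax mutants (0.018). It turned for Sfrp2 (0.021) and Fgf15 (0.028) without shared barcodes. With libraries left out, the double mutant minus the Atoh7 mutant ranged over -0.10 to 0.049 for Sfrp2, -0.068 to 0.017 for Fgf15 and -0.081 to 0.22 for Ccnd1, and Ccnd1 in the difference of the Atoh7 and Bax mutants over -0.016 to 0.063. Also reversed were, in the double mutant against the Bax mutant, Bax (-1.64 and 1.18 without double mutant replicates 1 and 2) and Ftl1 (-2.13 and 1.46). Of the other single-gene values, 961 kept direction and side of the threshold, 91 lost and 29 gained a call. The cause was not tested.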
